A study of Homo sapiens with 4 samples.

Results

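The genes described here encode the subunits of RNA polymerase II (Pol II), of Mediator and of Integrator. They were taken as the protein-coding genes of the deposited count table whose symbols begin with POLR2A to POLR2M, with MED and a digit, or with INTS and a digit. This gave 62 of the 63241 genes in the table, which also holds 20073 protein-coding genes in all: 16 for Pol II, 30 for Mediator and 16 for Integrator. The RNA came from FT190 cells, a human line that the labels call an ovarian epithelial cell and that is known as immortalised secretory epithelium of the fallopian tube. The shSMARCA4 group is 2 libraries from cells expressing a short hairpin RNA (label SMARCA4_sh1) against SMARCA4, a SWI/SNF chromatin remodelling ATPase, and the control group is 2 libraries from cells with the PLKO vector. All 4 carry the genotype label WT, the labels name 1 hairpin, and they do not say whether replicates were separate cultures. The p-values therefore rest on differences among libraries that may be purely technical.

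Pol II transcribes the protein-coding genes of the nucleus and most small nuclear RNA genes. Its largest subunit carries a long repetitive C-terminal domain (CTD), whose phosphorylation changes as the enzyme initiates, pauses near the promoter, elongates and terminates. Mediator bridges DNA-bound activators and Pol II: its head and middle modules contact the polymerase, its tail receives activators, and a detachable kinase module holds CDK8 or CDK19 with cyclin C. Integrator binds paused polymerase, cleaves the nascent RNA and carries a protein phosphatase 2A (PP2A) that removes phosphates from the CTD and from pausing factors. It also forms the 3' ends of the small nuclear RNAs.

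SMARCA4 (ENSG00000127616.22, chromosome 19, 10961030 to 11062273, plus strand of hg38) stood at 34.0 and 36.3 CPM (counts scaled to a library total of 1e+06) in shSMARCA4 libraries 1 and 2, against 171 and 162 CPM in control libraries 1 and 2. It fell 4.74-fold, a log2 fold change of -2.24 (SE 0.052, adjusted p = 1.86e-07 by edgeR), in the direction the labels give. Total counts were 27137414 to 28536665 in shSMARCA4 libraries and 32618516 to 33641343 in controls, so that 1 count is worth 0.0345 to 0.0362 CPM in shSMARCA4 libraries and 0.0305 to 0.0310 CPM in controls. The list of epithelial and tubal secretory markers summed to 1261 to 1264 CPM in shSMARCA4 cells and 1747 to 1852 CPM in controls. KRT8, KRT18 and KRT7 held most of it, at means of 560, 312 and 305 CPM in shSMARCA4 cells and 760, 367 and 596 CPM in controls. PAX8 (63.4 against 58.6 CPM) and WT1 (18.2 against 14.3 CPM) held less and stood higher in shSMARCA4 cells. EPCAM stayed under 1 CPM in every library, and OVGP1, ESR1 and KRT19 did not pass the filter on low counts. Of the 7 tested genes of this list 1 rose, WT1, and 3 fell, the keratins KRT7, KRT8 and KRT18. PAX8 did not pass the test. Of 6 tested fibroblast and smooth muscle markers 4 fell, with sums of 1667 to 1795 CPM in shSMARCA4 cells and 2215 to 2274 CPM in controls. Endothelial markers summed to 1.07 to 1.12 CPM in shSMARCA4 cells and 2.23 to 2.63 CPM in controls. Of 3 tested 1 fell, TIE1 (adjusted p = 0.00150 by edgeR). TIE1 held 12 counts in each shSMARCA4 library, against 45 and 56 in controls. Immune markers summed to 23.5 to 25.0 CPM in shSMARCA4 cells and 23.1 to 25.5 CPM in controls, nearly all of it CD68. CD79A was at 0 in all libraries. Of 3 tested immune markers 1 fell, CD14 (adjusted p = 0.0168 by edgeR). CD14 held 3 counts in each shSMARCA4 library, against 13 and 14 in controls, and its call was lost in 3 of 11 alternatives. Ciliated markers summed to 304 to 305 CPM in shSMARCA4 cells and 384 to 421 CPM in controls, nearly all of it TUBB4B. Of 2 tested ciliated markers 1 fell, TUBB4B (adjusted p = 3.99e-04 by edgeR). The part of these marker shifts in the results below was not tested, and in bulk RNA fewer cells of a type and less RNA per cell cannot be told apart.

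The subunit genes changed little and mostly upward. Of 61 genes tested, 16 rose and 2 fell at an adjusted p under 0.05, against 13.8% of all 18781 genes tested that rose and 15.8% that fell. As shares of the members these were 26.2% and 3.28%. Counted in either direction, the members' share of 29.5% lay next to the 29.7% of all genes tested. Among the protein-coding genes tested alone 16.8% rose and 19.2% fell, 36.0% in either direction. The log2 fold change was above 0 for 42 of 61 members (68.9%), against 49.2% of all genes tested. The 2 shSMARCA4 libraries lay wholly above or wholly below the 2 controls for 40 members (65.6%), against 65.9% of all genes tested and 71.0% of the protein-coding ones. With 2 libraries a group, an exact permutation test cannot go below p = 0.33.

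The changes were small in every complex. Median log2 fold changes were 0.05 for Pol II, 0.06 for Mediator and 0.05 for Integrator, and -0.00 over all genes tested. With library totals alone as the scale the 3 medians were 0.10, 0.11 and 0.09, and that of all genes tested was also higher, at 0.04. The standard deviations of the log2 fold changes were 0.13, 0.19 and 0.15, against 0.43 over all genes tested and 0.40 over the protein-coding ones. The median SE was 0.056 over the members, 0.094 over all genes tested and 0.070 over the protein-coding ones. The part of this difference in precision in the spread was not tested. A change of at least 1.2-fold was measured for 9 of 61 members (14.8%), against 37.9% of all genes tested and 34.3% of the protein-coding ones. No member reached 1.5-fold, a size that 2365 genes tested reached or passed. The largest member change was the fall of MED26, at 0.42 on the log2 scale, and 21.8% of all genes tested changed by more.

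**Figure D1:**
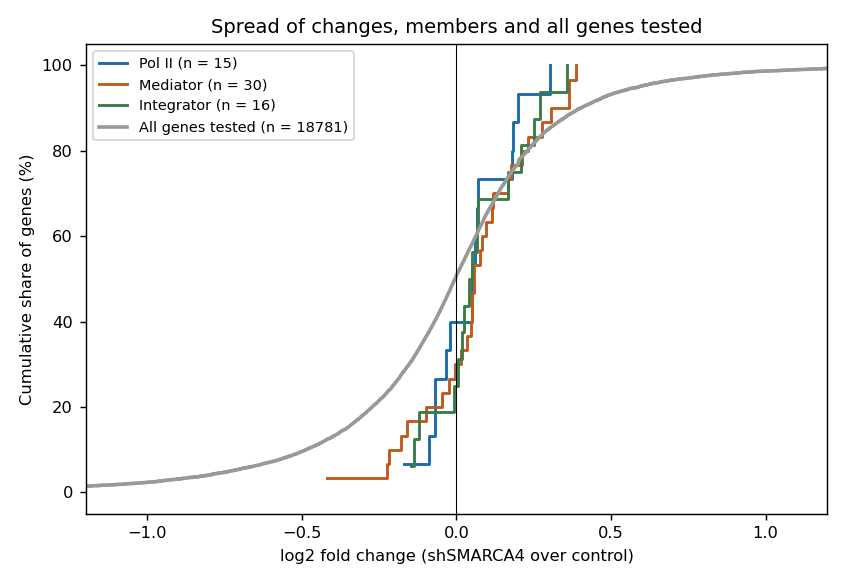
Cumulative share of genes (vertical axis, %) against log2 fold change of shSMARCA4 over control (horizontal axis), for the tested genes of each complex and for all 18781 genes tested. The 3 complexes rise steeply just right of 0, with medians of 0.05, 0.06 and 0.05, while the curve of all genes runs from far left to far right around a median near 0.

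The counts moved with the library left out. Each such fit leaves 1 library in a group, so the spread between replicates comes from the 2 libraries of the other group alone. Replicates differed more in controls than in shSMARCA4 cells (chi-square over degrees of freedom 6.94 and 1.94). The part of this in the calls gained or lost was not tested. Without shSMARCA4 library 1, 7 members rose and none fell by edgeR (3 had an unadjusted p under 0.05 in the downward direction), against 8.77% and 10.6% of genes tested in that comparison, and without shSMARCA4 library 2, 10 rose and 2 fell, against 9.11% and 11.5%. Leaving out control library 1 gave 22 risen and 5 fallen members, against 18.7% and 19.8% of genes tested, and leaving out control library 2 gave 17 and 5, against 16.2% and 18.3%. With library totals alone as the scale, 20 members rose and 2 fell, against 19.3% and 13.1% of genes tested, and the share of all calls in the upward direction was 59.5% in place of 46.6%. By DESeq2, 9 members rose and 1 fell, against 8.65% and 10.3% of genes tested. The calls of INTS13, INTS8, MED13L, MED21, MED6 and POLR2H held in all 13 alternatives.

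**Figure D2:**
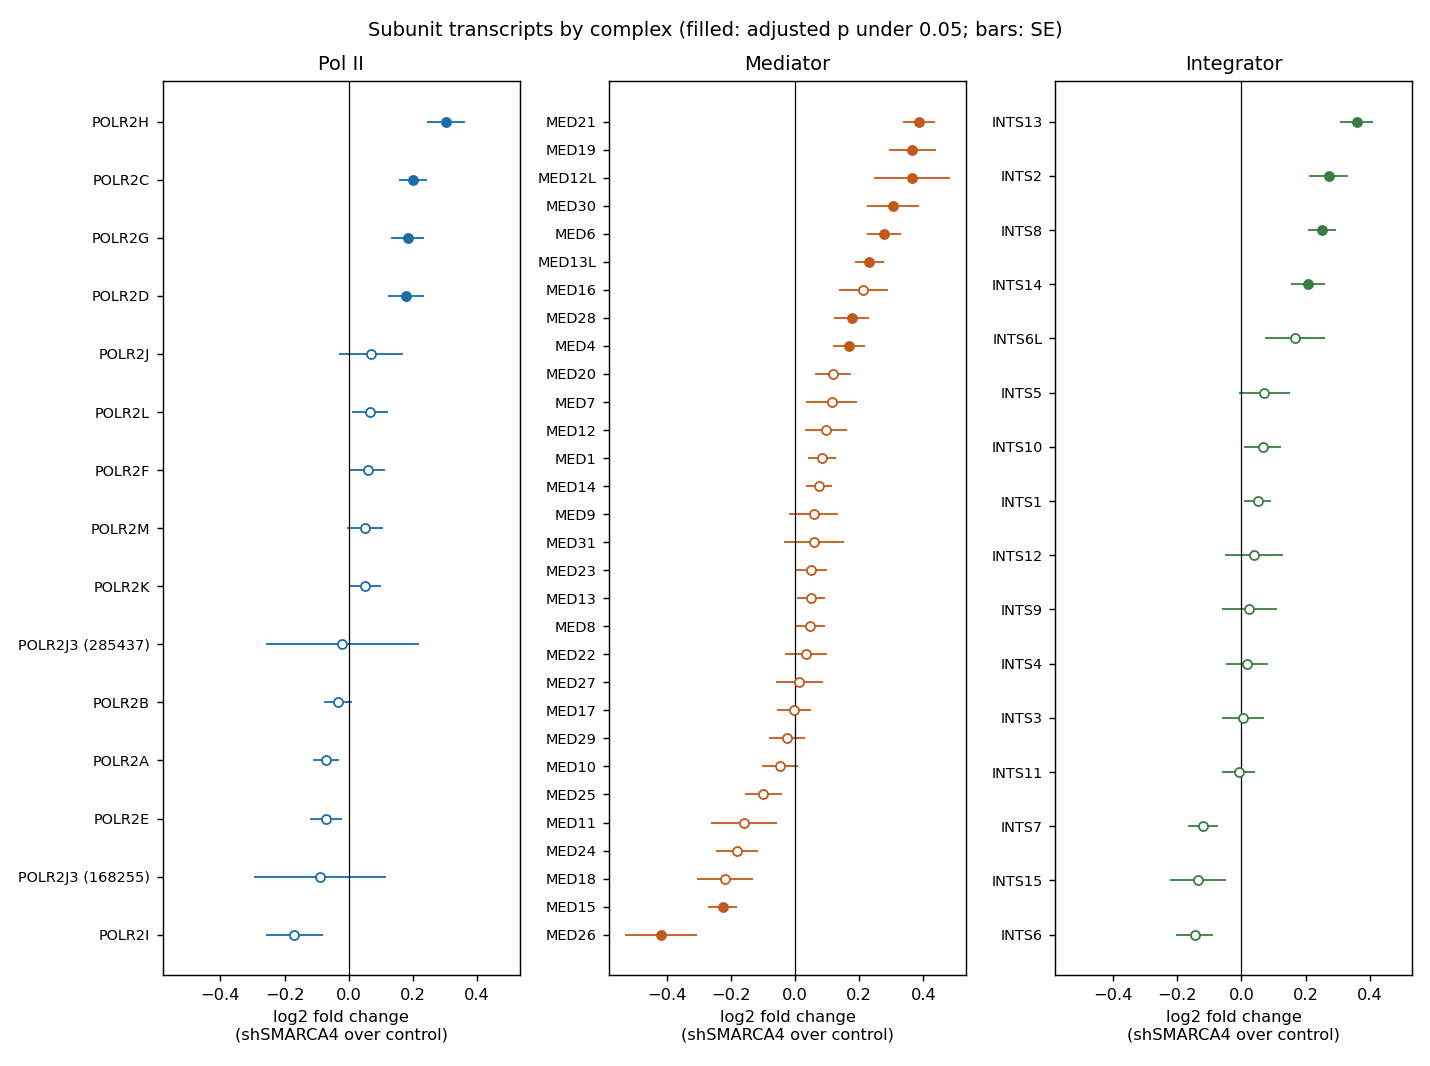
Log2 fold change of shSMARCA4 over control (horizontal axis) of the 61 tested subunit genes, one panel per complex, with standard errors as bars and filled points for an adjusted p under 0.05; numbers after POLR2J3 are the end of its 2 gene IDs. Filled points lie on the right in all panels except MED15 and MED26 at the foot of the Mediator panel.

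The promoters of 5 members that passed the test are shown because they include the highest and the lowest G and C content among the members and differ in the GC box, CCAAT, ETS and NRF1 matches they hold: POLR2H, INTS13 and MED19, which rose, and MED26 and MED15, which fell. Each is the 250 bases before the start site from RefSeq (GRCh38.p14), 5' to 3' on the gene's strand, and capitals mark matches on either strand to the GC box (GGGCGG), to the CCAAT box (those 5 letters), to the core bound by ETS factors (CCGGAAG) or to the NRF1 motif, 10 bases of which 1 is free and whose matches can overlap.
POLR2H, chr3:184361460-184361709, plus strand: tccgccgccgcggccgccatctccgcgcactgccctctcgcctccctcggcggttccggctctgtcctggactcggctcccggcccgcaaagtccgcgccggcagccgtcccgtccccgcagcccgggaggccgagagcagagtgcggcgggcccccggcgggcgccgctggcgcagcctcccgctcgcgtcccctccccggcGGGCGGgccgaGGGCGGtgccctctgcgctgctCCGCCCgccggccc
INTS13, chr12:26937982-26938231, minus strand: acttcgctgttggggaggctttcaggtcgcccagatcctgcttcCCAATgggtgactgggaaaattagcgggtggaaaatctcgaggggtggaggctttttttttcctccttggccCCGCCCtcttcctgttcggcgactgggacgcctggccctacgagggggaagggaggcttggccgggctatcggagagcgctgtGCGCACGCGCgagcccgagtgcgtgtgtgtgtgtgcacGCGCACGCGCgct
MED19, chr11:57712216-57712465, minus strand: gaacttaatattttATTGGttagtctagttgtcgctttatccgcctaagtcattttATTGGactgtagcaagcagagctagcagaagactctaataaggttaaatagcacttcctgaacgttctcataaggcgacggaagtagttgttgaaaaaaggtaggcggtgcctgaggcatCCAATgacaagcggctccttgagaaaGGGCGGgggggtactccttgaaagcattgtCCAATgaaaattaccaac
MED26, chr19:16628205-16628454, minus strand: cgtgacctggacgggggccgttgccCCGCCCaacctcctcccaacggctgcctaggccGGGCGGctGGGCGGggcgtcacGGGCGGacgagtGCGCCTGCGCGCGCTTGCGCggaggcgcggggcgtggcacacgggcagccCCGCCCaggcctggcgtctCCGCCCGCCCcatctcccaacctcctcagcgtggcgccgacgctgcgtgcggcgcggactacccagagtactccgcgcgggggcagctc
MED15, chr22:20507360-20507609, plus strand: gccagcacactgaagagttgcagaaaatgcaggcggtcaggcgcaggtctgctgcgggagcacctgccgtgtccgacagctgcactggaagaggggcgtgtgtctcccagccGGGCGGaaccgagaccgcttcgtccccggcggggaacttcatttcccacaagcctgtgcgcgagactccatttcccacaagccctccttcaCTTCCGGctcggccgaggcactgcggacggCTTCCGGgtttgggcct
The POLR2H stretch is 82% G and C with 3 GC boxes at -47, -36 and -14 from the start site. INTS13 has 63.6% G and C, with a CCAAT match at -206, a GC box at -134 and NRF1 matches at -51 and -13. MED19 is the most A and T rich of the 44 members with an entry, at 43.6% G and C, with 4 CCAAT matches at -236, -194, -74 and -18 and a GC box at -48. MED26 holds 7 GC boxes and 2 NRF1 matches in a stretch of 78% G and C, and MED15 a GC box at -138 and ETS matches at -47 and -17.

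RefSeq entries were found for 44 of the 61 member symbols, and motif shares over them were set beside those of 10776 tested protein-coding genes. A GC box was present in 30 of 44 (68.2%, against 66.0%) and CCAAT in 15 (34.1%, against 34.6%). ETS matches were found in 12 (27.3%, against 15.6%) and NRF1 matches in 11 (25.0%, against 9.84%). TATAAA was found in 3 (6.82%, against 5.80%), AAGATGGCG (the YY1 motif) in 2 (4.55%, against 0.956%), CACGTG in 2 (4.55%, against 8.52%) and TGACTCA in 1 (2.27%, against 2.76%). Of the 10 risen members with an entry, 6 held CCAAT, as did neither of the 2 that fell. A match is a run of letters in this window and shows no binding. Median G and C content was 61.8% over the members and 64.8% over the tested protein-coding genes.

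Within Pol II, neither of the large subunits passed the test, and 4 smaller subunits rose. POLR2A, the largest subunit and carrier of the CTD, held 289 CPM in each shSMARCA4 library, against 295 and 311 CPM in the controls. Both shSMARCA4 values lay below both control values, but the log2 fold change of -0.07 (SE 0.041) did not pass, with adjusted p = 0.235 by edgeR. POLR2B, which forms the other side of the active centre, held 189 and 179 CPM in shSMARCA4 cells and 189 and 188 CPM in controls, with overlapping groups and adjusted p = 0.597 by edgeR. Its log2 fold change of -0.03 turned to 0.02 with library totals alone.

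POLR2H (ENSG00000163882.10, chromosome 3, 184361710 to 184368591, plus strand) is a subunit shared by RNA polymerases I, II and III. It held 60.2 and 58.8 CPM in shSMARCA4 cells, against 45.6 and 50.9 CPM in controls. Both shSMARCA4 libraries stood above both controls, at 59.5 ± 0.989 CPM in shSMARCA4 cells and 48.2 ± 3.73 CPM in controls (SD, n = 2 each). The rise was 1.23-fold, a log2 fold change of 0.30 (SE 0.060, adjusted p = 0.00501 by edgeR), and it was the largest in Pol II. The other 4 shared subunits, POLR2E, POLR2F, POLR2K and POLR2L, did not pass, with log2 fold changes of -0.07, 0.06, 0.05 and 0.07.

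POLR2C (ENSG00000102978.13, chromosome 16, 57462679 to 57472009, plus strand) forms the assembly platform of the enzyme with POLR2J. It held 79.6 and 78.2 CPM in shSMARCA4 cells, against 69.0 and 68.3 CPM in controls. The groups did not overlap, and the log2 fold change was 0.20 (SE 0.043) with adjusted p = 0.00815 by edgeR. POLR2D (ENSG00000144231.11, chromosome 2, 127843553 to 127858155, minus strand) and POLR2G (ENSG00000168002.12, chromosome 11, 62761580 to 62766710, plus strand) form the stalk, which lies next to the exit of the nascent RNA. POLR2G held 44.3 and 44.96 CPM in shSMARCA4 cells, against 39.9 and 38.6 CPM in controls. POLR2D held 56.5 and 57.7 CPM in shSMARCA4 cells, against 52.7 and 48.1 CPM in controls. Both stalk genes lay higher in each shSMARCA4 library than in either control. Their log2 fold changes were 0.18 (SE 0.051, adjusted p = 0.0237 by edgeR) for POLR2G and 0.18 (SE 0.056, adjusted p = 0.0385 by edgeR) for POLR2D.

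These Pol II calls lay near the threshold. Without shSMARCA4 library 1, POLR2H remained as the 1 Pol II call in the upward direction, and the calls of POLR2C, POLR2D and POLR2G were lost. POLR2G and POLR2D also lost theirs without shSMARCA4 library 2, and POLR2D without control library 2. Over the 13 alternatives the largest adjusted p was 0.0428 for POLR2H, 0.0762 for POLR2C, 0.179 for POLR2D and 0.180 for POLR2G. No Pol II subunit fell by edgeR, DESeq2 or limma-voom, none had an unadjusted p under 0.05 in that direction, and 1 fell where control library 1 or 2 was left out.

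Of the remaining Pol II genes, POLR2I, which sits by the downstream DNA, had a log2 fold change of -0.17 (SE 0.090) and did not pass. POLR2M, known as Gdown1, blocks the binding of initiation factors to the polymerase and had 0.05 (SE 0.056). POLR2J and its copies POLR2J2 and POLR2J3 are near-identical on chromosome 7, so the counting may have split their reads and their values are uncertain. POLR2J averaged 8.14 CPM in shSMARCA4 cells and 7.76 CPM in controls. POLR2J3 stands in the table under 2 gene IDs at 2.53 and 1.92 CPM in shSMARCA4 cells and 2.69 and 1.96 CPM in controls, and neither passed. POLR2J2 was not tested, with 4 counts in each shSMARCA4 library and 3 and 2 in the controls.

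Mediator held the largest movements in both directions, with 8 of 30 genes risen and 2 fallen. The head module binds Pol II and the pre-initiation complex, and of the 12 tested genes assigned to it here 4 rose. Genes were assigned to modules by a fixed list, not from these data, so counts and sums per module depend on that list. MED6 (ENSG00000133997.12, chromosome 14, 70583221 to 70600655, minus strand), which lies at the joint of head and middle, held 56.3 and 57.2 CPM in shSMARCA4 cells, against 48.6 and 45.1 CPM in controls. Both shSMARCA4 values were above both control values, with a log2 fold change of 0.28 (SE 0.053) and adjusted p = 0.00452 by edgeR. MED19 (ENSG00000156603.20, chromosome 11, 57703714 to 57712215, minus strand), known in yeast as part of the hook that contacts the polymerase, held 21.2 and 22.9 CPM in shSMARCA4 cells, against 16.9 and 17.3 CPM in controls. The gap between the groups was wider than the spread in either, with a log2 fold change of 0.37 (SE 0.073) and adjusted p = 0.00558 by edgeR.

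MED30 (ENSG00000164758.7, chromosome 8, 117520713 to 117540262, plus strand) held 17.8 and 17.1 CPM in shSMARCA4 cells, against 13.5 and 14.7 CPM in controls. It is a subunit of metazoan Mediator, listed here with the head, and rose by 0.31 on the log2 scale (SE 0.081, adjusted p = 0.0200 by edgeR). MED28 (ENSG00000118579.13, chromosome 4, 17614641 to 17634105, plus strand) held 35.4 and 35.2 CPM in shSMARCA4 cells, against 31.2 and 31.3 CPM in controls. The replicates of MED28 nearly coincided and the groups did not overlap, with a log2 fold change of 0.18 (SE 0.053) and adjusted p = 0.0350 by edgeR. The other 8 head genes, MED8, MED11, MED17, MED18, MED20, MED22, MED27 and MED29, ran from -0.22 (MED18, adjusted p = 0.0908 by edgeR) to 0.12 (MED20, adjusted p = 0.157 by edgeR). MED17, the central subunit of the head, had a log2 fold change of -0.00, at 34.8 ± 0.441 CPM in shSMARCA4 cells and 34.9 ± 0.725 CPM in controls (SD, n = 2 each).

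The middle module gave the largest rise and the largest fall of all members. MED21 (ENSG00000152944.9, chromosome 12, 27022558 to 27030673, plus strand), which in yeast pairs with MED7 in the hinge of the middle module, held 78.4 and 73.4 CPM in shSMARCA4 cells, against 58.0 and 58.2 CPM in controls. The shSMARCA4 mean was 75.9 ± 3.55 CPM and the control mean 58.1 ± 0.174 CPM (SD, n = 2 each), with no overlap. This was a 1.31-fold rise, a log2 fold change of 0.39 (SE 0.049, adjusted p = 5.48e-04 by edgeR), the smallest of any member. MED4 (ENSG00000136146.15, chromosome 13, 48075724 to 48095104, minus strand), another core subunit of the middle, held 49.0 and 48.1 CPM in shSMARCA4 cells, against 42.6 and 43.9 CPM in controls. Its groups did not overlap either, with a log2 fold change of 0.17 (SE 0.049) and adjusted p = 0.0307 by edgeR. MED4, MED28, MED30 and MED12L lost their calls without shSMARCA4 library 1, and MED4, MED28, MED19 and MED12L without shSMARCA4 library 2, and 4 Mediator genes rose in each case. The largest adjusted p over the alternatives was 0.212 for MED4, 0.205 for MED28, 0.120 for MED30 and 0.0517 for MED19, and at most 0.0129 for MED21 and 0.0339 for MED6.

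MED26 (ENSG00000105085.11, chromosome 19, 16574919 to 16628204, minus strand) is the subunit through which Mediator recruits the super elongation complex and other elongation factors. It held 6.56 and 6.99 CPM in shSMARCA4 cells, against 9.60 and 8.49 CPM in controls. Both shSMARCA4 libraries stood below both controls, and the fall was 1.34-fold, a log2 fold change of -0.42 (SE 0.11, adjusted p = 0.0204 by edgeR). The call was lost without a filter on low counts, by DESeq2 and without shSMARCA4 library 1, and its adjusted p ran from 1.71e-04 to 0.114 over the 13 alternatives. MED1, the subunit contacted by nuclear receptors, averaged 132 ± 0.311 CPM in shSMARCA4 cells and 125 ± 5.18 CPM in controls (SD, n = 2 each), and did not pass (log2 fold change 0.08, SE 0.044). MED7, MED9, MED10 and MED31 lay between -0.05 and 0.11 and did not pass. MED14, the scaffold that joins the 3 core modules, held 156 and 158 CPM in shSMARCA4 cells, against 152 and 146 CPM in controls, with adjusted p = 0.219 by edgeR.

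In the tail, which activators contact, MED15 (ENSG00000099917.17, chromosome 22, 20507610 to 20587619, plus strand) fell. It held 68.6 and 71.6 CPM in shSMARCA4 cells, against 81.7 and 82.2 CPM in controls. The groups did not overlap, and the fall was 1.17-fold, a log2 fold change of -0.23 (SE 0.045, adjusted p = 0.00555 by edgeR). MED15 is the tail subunit bound by SREBP and SMAD factors. The call was lost without shSMARCA4 library 1, where adjusted p reached 0.0989, the highest of a range that began at 4.10e-05. MED24 and MED16, which pair in the tail, had log2 fold changes of -0.18 (adjusted p = 0.0627 by edgeR) and 0.21 (adjusted p = 0.0659 by edgeR). MED16 rose in 4 of the alternatives and MED24 fell in 2. MED23 and MED25 had 0.05 and -0.10 and did not pass.

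In the kinase module the 2 vertebrate paralogs of the core pair rose, while MED12 and MED13 themselves did not pass. MED13 and MED13L tether the kinase to Mediator, and MED12 and MED12L activate it. MED13L (ENSG00000123066.9, chromosome 12, 115958576 to 116277693, minus strand) held 100.1 and 99.4 CPM in shSMARCA4 cells, against 87.6 and 82.3 CPM in controls. Its groups stood apart, with a log2 fold change of 0.23 (SE 0.046) and adjusted p = 0.00555 by edgeR, and the call held in all 13 alternatives. MED12L (ENSG00000144893.13, chromosome 3, 151085664 to 151436653, plus strand) held 9.77 and 9.42 CPM in shSMARCA4 cells, against 6.71 and 8.21 CPM in controls. Control library 1 was the low value here. The log2 fold change of 0.36 (SE 0.12, adjusted p = 0.0460 by edgeR) lost its call in 5 alternatives, among them those without control library 1, shSMARCA4 library 1 or shSMARCA4 library 2, with adjusted p up to 0.138. MED13 averaged 165 ± 3.43 CPM in shSMARCA4 cells and 160 ± 5.80 CPM in controls, and MED12 35.9 ± 1.30 CPM in shSMARCA4 cells and 33.6 ± 2.41 CPM in controls (SD, n = 2 each), with log2 fold changes of 0.05 and 0.10. Whether the paralogs changed by a different amount than MED12 and MED13 was not tested.

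The partners that these subunits hold, which are no members by name, all passed the test, and in different directions. CDK19, 1 of the 2 alternative kinases, held 35.5 and 34.6 CPM in shSMARCA4 cells, against 43.7 and 51.3 CPM in controls. It fell by 0.44 on the log2 scale (SE 0.076, adjusted p = 0.00265 by edgeR). CDK8, the other kinase, held 34.3 CPM in each shSMARCA4 library, against 29.5 and 27.4 CPM in controls. It rose by 0.27 (SE 0.061, adjusted p = 0.00985 by edgeR), a call lost only without a filter on low counts, where adjusted p was 0.0527 in a range from 8.22e-06. CCNC (cyclin C) held 135 and 134 CPM in shSMARCA4 cells, against 161 and 153 CPM in controls, and fell by 0.22 (SE 0.043, adjusted p = 0.00465 by edgeR). The falls of CDK19 and CCNC held in all 13 alternatives. Per kilobase of exon, CDK19 made up 33.1% and 32.5% of the CDK8 and CDK19 level in shSMARCA4 cells, against 41.4% and 47.2% in controls. For MED13L beside MED13 this share was 39.4% and 38.5% in shSMARCA4 cells, against 36.1% and 35.9% in controls. For MED12L beside MED12 it was 17.5% and 17.7% in shSMARCA4 cells, against 13.2% and 17.1% in controls. In each of these 3 pairs the shSMARCA4 and control shares did not overlap.

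**Figure D3:**
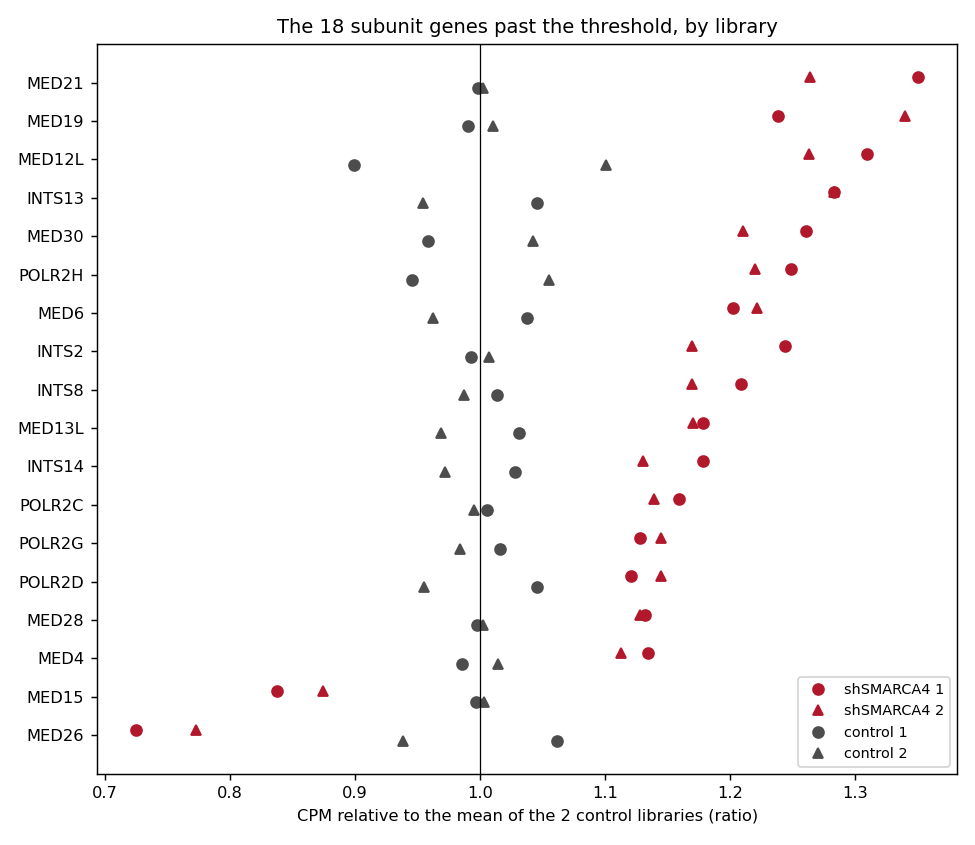
CPM of the 18 subunit genes past the threshold in each library, as a ratio to the mean of the 2 controls (horizontal axis), with circles for replicate 1 and triangles for replicate 2. The shSMARCA4 points lie right of the controls for 16 genes and left of them for MED15 and MED26, and those of INTS13 coincide at 118 CPM.

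Integrator had 4 risen genes of 16 and none that fell by edgeR, DESeq2 or limma-voom, although 2 (INTS6 and INTS7) had an unadjusted p under 0.05 in that direction by edgeR, and 2 fell where control library 2 was left out. The leading rise was in the module of INTS10, INTS13, INTS14 and INTS15, an arm through which Integrator meets transcription factors. INTS13 (ENSG00000064102.15, chromosome 12, 26905181 to 26937981, minus strand) held 118 CPM in each shSMARCA4 library, against 96.3 and 87.9 CPM in controls. Both shSMARCA4 values stood well above both controls, a 1.28-fold rise with a log2 fold change of 0.36 (SE 0.051) and adjusted p = 9.26e-04 by edgeR. INTS14 (ENSG00000138614.16, chromosome 15, 65578753 to 65611136, minus strand), with which INTS13 forms a heterodimer, held 55.3 and 53.1 CPM in shSMARCA4 cells, against 48.3 and 45.7 CPM in controls. The groups did not overlap, with a log2 fold change of 0.21 (SE 0.052) and adjusted p = 0.0162 by edgeR. INTS10 and INTS15 had 0.07 and -0.14 and did not pass.

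Of the backbone and shoulder subunits, INTS2 and INTS8 rose. INTS8 (ENSG00000164941.14, chromosome 8, 94823287 to 94881746, plus strand), which helps hold PP2A in the complex, held 98.3 and 95.1 CPM in shSMARCA4 cells, against 82.4 and 80.3 CPM in controls. No shSMARCA4 value came near a control value, with a log2 fold change of 0.25 (SE 0.044) and adjusted p = 0.00285 by edgeR. INTS2 (ENSG00000108506.14, chromosome 17, 61865390 to 61927982, minus strand), part of the backbone, held 33.4 and 31.4 CPM in shSMARCA4 cells, against 26.6 and 27.0 CPM in controls. Its groups were likewise apart, with a log2 fold change of 0.27 (SE 0.060) and adjusted p = 0.00909 by edgeR. INTS1, the largest backbone subunit, averaged 87.6 ± 0.878 CPM in shSMARCA4 cells and 84.6 ± 0.888 CPM in controls (SD, n = 2 each) and did not pass (log2 fold change 0.05), nor did INTS5 (0.07) or INTS7 (-0.12, adjusted p = 0.0778 by edgeR).

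The cleavage module of Integrator and its subunits INTS6 and INTS6L did not pass the test. INTS11, the endonuclease, held 45.04 and 43.2 CPM in shSMARCA4 cells, against 44.1 and 44.7 CPM in controls, with a log2 fold change of -0.01 (SE 0.051). INTS9 and INTS4, its partners in the cleavage module, had 0.02 and 0.02. INTS6, which recruits PP2A, held 47.3 and 44.5 CPM in shSMARCA4 cells, against 52.5 and 49.1 CPM in controls, and its log2 fold change of -0.15 (SE 0.056) had adjusted p = 0.0812 by edgeR. Its paralog INTS6L held 13.8 and 15.4 CPM in shSMARCA4 cells, against 12.3 and 13.6 CPM in controls, with 0.17 (SE 0.093) and adjusted p = 0.218 by edgeR. These 2 paralogs lay on opposite sides of 0, and INTS6L made up 24.2% and 27.4% of their summed level per kilobase in shSMARCA4 cells, against 20.5% and 23.3% in controls. INTS3 and INTS12 had 0.00 and 0.04, and the control libraries spread further for both than the groups differed.

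Without shSMARCA4 library 1, INTS2 and INTS14 lost their calls, which left 2 risen Integrator genes. Adjusted p over the alternatives reached 0.0994 for INTS2 and 0.129 for INTS14, and stayed at or below 0.0290 for INTS8 and 0.0157 for INTS13. Integrator's associated PP2A and SOSS proteins moved both ways, with 2 of 8 risen and 1 fallen. PPP2CB, a catalytic subunit of PP2A, held 112 and 110 CPM in shSMARCA4 cells, against 95.1 and 92.6 CPM in controls, and rose by 0.24 on the log2 scale (SE 0.042, adjusted p = 0.00255 by edgeR). PPP2CA, the other catalytic subunit, had more counts, at 358 and 346 CPM in shSMARCA4 cells against 380 and 371 CPM in controls. Its log2 fold change of -0.09 did not pass (adjusted p = 0.111 by edgeR). NABP1 and NABP2 are the alternative single-strand binding proteins that INTS3 carries in the SOSS complex: NABP2 rose by 0.16 (SE 0.050, adjusted p = 0.0349 by edgeR) and NABP1 fell by 0.18 (SE 0.049, adjusted p = 0.0206 by edgeR). The calls of NABP1 and NABP2 were each lost in 5 alternatives, and that of PPP2CB in none of 13.

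Summed over their members, all 3 complexes stood slightly higher in shSMARCA4 cells. Pol II genes together held 987 and 973 CPM in shSMARCA4 cells, against 960.02 and 965 CPM in controls, a log2 ratio of 0.03. Mediator genes held 1415 and 1417 CPM in shSMARCA4 cells, against 1357 and 1325 CPM in controls, a ratio of 0.08. Integrator genes held 802 and 789 CPM in shSMARCA4 cells, against 754 and 737 CPM in controls, a ratio of 0.09. No sum of a shSMARCA4 library overlapped the controls, and the standard deviations of the log2 sums between replicates were 0.01, 0.02 and 0.02. The sums carry no test, and with library totals alone their log2 ratios were 0.07, 0.13 and 0.14, on a scale where the median of all genes tested was 0.04. Within Pol II, POLR2A and POLR2B together held 478 and 468 CPM in shSMARCA4 cells, against 484 and 499 CPM in controls. The other 14 Pol II genes held 509 and 505 CPM in shSMARCA4 cells, against 476 and 466 CPM in controls, 7.67% more. The arm module of Integrator stood 17.1% higher, at 236 and 231 CPM in shSMARCA4 cells against 207 and 191 CPM in controls. Most of this difference lay in INTS13, which averaged 118 CPM in shSMARCA4 cells and 92.1 CPM in controls. INTS15 of the same module was lower, at 12.9 against 14.2 CPM. The Mediator tail, taken as MED15, MED16, MED23, MED24 and MED25, stood lower. It held 222 and 221 CPM in shSMARCA4 cells, against 230 and 238 CPM in controls. Here MED15 carried most of the difference, averaging 70.1 CPM in shSMARCA4 cells and 81.9 CPM in controls, while MED16 was higher, at 22.4 against 19.4 CPM.

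**Figure D4:**
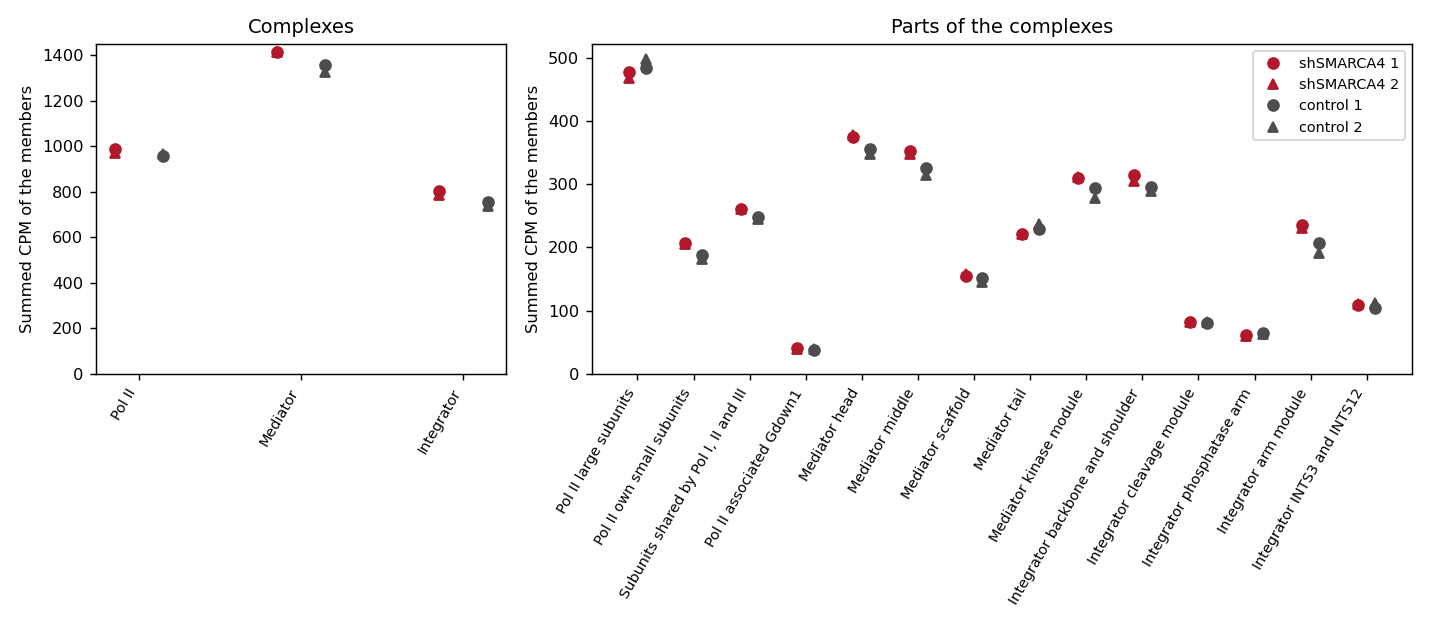
Summed CPM of the members (vertical axis, from 0) in each library, for the 3 complexes on the left and for their 14 parts on the right, with shSMARCA4 libraries left of controls. Among the parts, the largest ratio between the groups is that of the arm module of Integrator, at 236 and 231 CPM in shSMARCA4 cells against 207 and 191 CPM in controls.

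Levels between genes can be set side by side only per length. Pol II subunits ran from 0.416 to 76.6 CPM per kilobase in shSMARCA4 cells, with a median of 21.4, and from 0.423 to 73.2 with a median of 22.5 in controls. POLR2L was the highest and POLR2J3 the lowest. Mediator ran from 0.896 (MED12L) to 33.9 (MED10) with a median of 11.05 in shSMARCA4 cells, and from 0.697 to 35.1 with a median of 11.1 in controls. Integrator ran from 2.18 (INTS6L) to 45.4 (INTS13) with a median of 12.4 in shSMARCA4 cells, and from 1.94 to 35.4 with a median of 11.97 in controls. The order of genes by level was thus led and closed by the same genes in both groups. INTS13 was the most abundant Integrator transcript on this scale, and MED26 and MED12L, with MED28, the least abundant of Mediator.

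**Figure D5:**
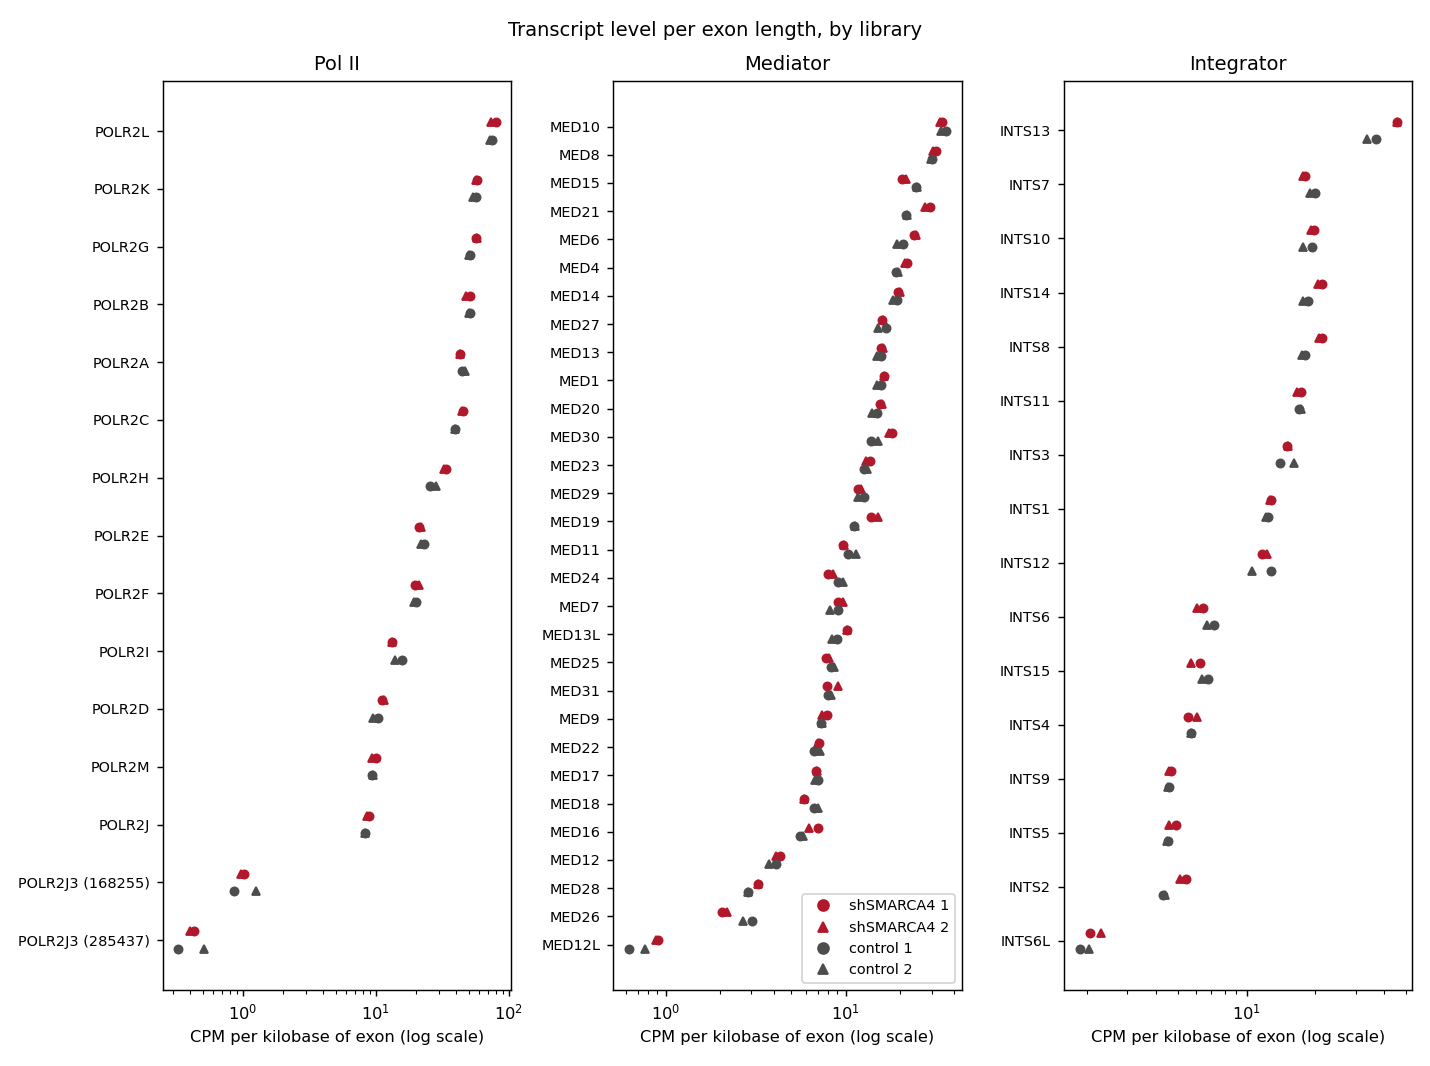
CPM per kilobase of exon (horizontal log axis) of the 61 tested genes in each library, ordered by level within each complex, shSMARCA4 libraries above controls. POLR2L, MED10 and INTS13 lead their complexes and the 2 POLR2J3 entries, MED12L and INTS6L close them.

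The leading riser of Integrator and that of Mediator lie close together. INTS13 and MED21 are 84576 bases apart on chromosome 12, with 3 tested genes between them. FGFR1OP2 (chromosome 12, 26938470 to 26966648, plus strand) starts 489 bases from the INTS13 start site, head to head with it, so that the INTS13 promoter printed above lies between the 2 genes. FGFR1OP2 held 33.0 and 34.2 CPM in shSMARCA4 cells, against 51.9 and 52.3 CPM in controls. It fell by 0.63 on the log2 scale (SE 0.051, adjusted p = 5.04e-05 by edgeR), opposite to INTS13, and both calls held in all 13 alternatives. TM7SF3, next to MED21, rose by 0.21 (SE 0.041, adjusted p = 0.00442 by edgeR; adjusted p = 0.0518 without shSMARCA4 library 2, in a range from 2.83e-06). The lncRNA ENSG00000247903 had 0.21 and did not pass (adjusted p = 0.108 by edgeR).

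In all, 15 members have a tested protein-coding gene that starts head to head with them within 1000 bases, and INTS13, MED19 and POLR2H are the 3 of these that passed the test. MED19 starts 378 bases from TMX2, a thioredoxin-related membrane protein gene, which held 95.3 and 95.2 CPM in shSMARCA4 cells, against 81.7 and 75.7 CPM in controls. TMX2 rose by 0.27 (SE 0.049, adjusted p = 0.00310 by edgeR), in the direction of MED19. A further gene that starts 382 bases from MED19, ENSG00000288534, had -0.05 and did not pass (adjusted p = 0.419 by edgeR). POLR2H starts 105 bases from CLCN2, a chloride channel gene, which had 0.20 (SE 0.15) and did not pass. Among the partners of members that did not pass, 3 fell. HMBOX1, a homeobox gene 426 bases from INTS9, held 2.69 and 3.41 CPM in shSMARCA4 cells, against 4.63 and 4.68 CPM in controls, and fell by 0.61 (SE 0.15, adjusted p = 0.0157 by edgeR; up to 0.138 over the alternatives, lost in 3 including that without shSMARCA4 library 1). ZBTB4, a zinc finger gene 103 bases from POLR2A, fell by 0.17 (SE 0.056) at the threshold itself, and its call was lost in 10 of 13 alternatives (adjusted p up to 0.195). MED29 starts 217 bases from PAF1, a subunit of the PAF1 elongation complex, which fell by 0.18 (SE 0.042, adjusted p = 0.0102 by edgeR), a call lost in 4 alternatives including those without shSMARCA4 library 1 or 2 (adjusted p up to 0.139). Within 100 kb of the risen members, 8 of 59 protein-coding genes that are no members rose and 14 fell, against 16.8% and 19.2% of all protein-coding genes tested, with a median log2 fold change of -0.02. Within the same distance of MED15 and MED26, 4 of 11 rose and 1 fell, with a median of 0.09. Among these 11, ENSG00000268790, which rose, and ENSG00000141979 (AC008764.1), which did not pass, share exons with MED26 on the same strand.

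Reads were counted on both strands, so exons shared with another gene add to both. In GENCODE release 29, 21 members share more than 5% of their exon bases with 1 other gene or more. These shares are of the exons of all transcripts of a gene. The counts kept 1 transcript per gene, so the shares of the counted exons can differ. MED26 shares 27.2% with the same-strand gene AC008764.1, whose log2 fold change was 0.00, and 13.2% with AC008764.4 (ENSG00000268790), which rose by 0.27. MED28 shares 32.1% with FAM184B (-0.13, not passed), INTS8 20.7% with CCNE2 (-0.02, not passed), and MED4 13.02% with MED4-AS1 (0.24, not passed). MED6 shares 7.51% with a same-strand lincRNA that rose by 0.29, and INTS12 shares 8.49% with GSTCD, which fell by 0.53. The part of shared reads in these values was not tested.

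In the wider transcription machinery genes rose and fell, and the share called in each list stands beside 29.7% of all genes tested and 36.0% of the protein-coding ones. The shares were 27.8% for general transcription factors, 33.3% each for TFIID and for assembly and import, and 53.8% for CTD kinases, phosphatases and CTD-binding proteins. Of 18 general transcription factor genes 2 rose and 3 fell, led by CCNH, the cyclin of TFIIH, which fell by 0.65 (SE 0.082, adjusted p = 5.08e-04 by edgeR). GTF2E1, a TFIIE subunit, rose by 0.33 and ERCC2, a TFIIH helicase, fell by 0.26. Of 15 TFIID subunits (TAFs) 4 rose and 1 fell, and TAF4B, the paralog of the scaffold TAF4, rose by 0.65 (SE 0.11, adjusted p = 0.00193 by edgeR), with TAF7 and TAF5 up by 0.25 and 0.28. Of 13 genes for CTD kinases, phosphatases and CTD-binding proteins 4 rose and 3 fell. RPRD2 and CTDSP2 fell by 0.47 and 0.44 and RPRD1B rose by 0.27, the first and last being CTD-binding scaffolds and CTDSP2 a small CTD phosphatase. Of 15 genes for Pol II assembly and import 2 rose (RPAP1 by 0.23) and 3 fell (DNAAF10 by 0.37 and RPRD1A by 0.20).

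Among the other polymerases and the processing factors, Pol III subunits fell as well as rose. Here 37.5% of Pol I, 45.5% of Pol III, 40.0% of small nuclear RNA activation and 23.5% of 3' end processing genes were called. Of 8 subunits named for Pol I 3 rose, POLR1C by 0.36 (SE 0.056, adjusted p = 0.00152 by edgeR), POLR1B by 0.31 and POLR1A by 0.23. Of 11 Pol III subunits 2 rose and 3 fell, with POLR3F down by 0.79 (SE 0.090, adjusted p = 3.14e-04 by edgeR), POLR3G up by 0.46 and POLR3A up by 0.26. Of 10 genes for activation of small nuclear RNA genes 3 rose and 1 fell: SNAPC5, part of the activating complex, rose by 0.41, ICE1, a little elongation complex scaffold, rose by 0.26, and POU2F1 (Oct-1) fell by 0.33. Of 17 genes for 3' end processing 4 rose, among them CPSF4 by 0.35, CSTF2 by 0.27 and CPSF1 by 0.23. POLR1C is also a Pol III subunit, and RPRD1A stands in 2 lists. Of the 43 called genes in all lists of partners and machinery, 19 lost the call without shSMARCA4 library 1 and 15 without shSMARCA4 library 2, 2 without control library 1 and 1 without control library 2, and 14 kept it in all 13 alternatives. Among the genes named in this and the preceding paragraph, GTF2E1, TAF5, RPRD1A, DNAAF10, RPAP1, CPSF1 and CPSF4 were among those lost without shSMARCA4 library 1, and POU2F1, RPAP1 and CPSF1 without shSMARCA4 library 2. The largest adjusted p that any of the 43 reached was 0.264, for RPAP3.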

How the data were processed

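RNA from 4 FT190 libraries was counted per gene. The raw counts were made by the authors with HOMER over exons of GENCODE release 45 on hg38, on both strands, with 1 transcript kept per gene and no normalization, per the file headers. Reads were aligned with STAR 2.6.1c, and DESeq2 1.19.38 is also named, per the submitters' processing notes. Groups and replicate numbers came from the sample titles.

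Genes were kept by filterByExpr (count minimum 10), which left 18781 and removed 44460. Scaling used TMM factors (1.02 and 1.02 in shSMARCA4 libraries, 0.976 and 0.990 in controls), and genes were tested with edgeR 4.0.16 in R 4.3.3 (glmQLFit and glmQLFTest, two-sided), with p-values adjusted by Benjamini-Hochberg over the 18781 genes and called below 0.05. The biological coefficient of variation was 0.0413. CPM values are counts over the scaled total in units of 1e+06, per 1000 bases of deposited exon length where stated. The SE of a log2 fold change is its size over the square root of F. The test was also run on simulated data with known changes, drawn with the same dispersion for all genes. It recovered 40.8% of 1.2-fold and 79.2% of 1.5-fold changes, so a gene that did not pass may still have changed by such a size. Replicate counts differed beyond sampling noise (chi-square over degrees of freedom 1.94 for shSMARCA4 and 6.94 for control), so each library counted once. Alternatives used RLE, upper-quartile factors or library totals alone, no filter or a 1 CPM filter, a replicate block, protein-coding genes alone, DESeq2 1.42.0, limma-voom (limma 3.58.1) and each library left out. Members, lists and the rule for named genes (every member past the threshold, a fixed set of members, and up to 3 genes a list with the smallest adjusted p) were chosen with earlier results of these data known. Genes named beyond it, such as neighbours, head-to-head partners and overlapping genes, were chosen after their values were seen. Exon overlap was read over all transcripts of each gene in GENCODE release 29, an older release than that of the counts.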

Additional observations from a re-analysis of the deposited data

How the results depend on the processing

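With 2 libraries a group and changes mostly under 1.2-fold, many calls lie near the threshold, and 12 of the 18 member calls were lost in at least 1 of 13 alternatives. The causes of the shifts below were not tested. SMARCA4 ran from -2.29 to -2.19 with 1 library left out.

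Without a filter on low counts, 1403 genes rose and 1784 fell, with 2 risen Pol II, 4 risen and 1 fallen Mediator and 2 risen Integrator genes. By DESeq2, 1625 genes rose and 1930 fell, with 2 risen Pol II and 4 risen and 1 fallen Mediator genes, and a Mediator median log2 fold change of 0.062. Protein-coding genes alone gave a Mediator median of 0.064. Upper-quartile factors gave medians of 0.073 (Mediator) and 0.061 (Integrator) and a Pol II sum ratio of 0.041. Library totals alone gave medians of 0.10 (Pol II), 0.11 (Mediator) and 0.095 (Integrator) and sum ratios of 0.075, 0.13 and 0.14. The replicate block gave 17 risen and 5 fallen members, among them 2 fallen Integrator genes, beside 3187 risen and 3562 fallen genes. Same-numbered libraries correlated at 0.0754 in their deviations from the group means, and 2 pairs are too few to show pairing.

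With 1 library left out, 1724 to 3618 genes rose and 2077 to 3828 fell. Pol II had 1 to 4 risen and 0 to 1 fallen genes, with a median of 0.021 to 0.071 and a sum ratio of 0.015 to 0.036. Mediator had 4 to 12 risen and 0 to 4 fallen genes, with a median of 0.043 to 0.093 and a sum ratio of 0.061 to 0.096. Integrator had 2 to 6 risen and 0 to 2 fallen genes, with a median of 0.027 to 0.074 and a sum ratio of 0.077 to 0.11.

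Members that changed sign had not passed the test. Their log2 fold changes were, with library totals alone INTS11 (0.041), MED10 (0.0033), MED17 (0.046), MED29 (0.025), POLR2B (0.015), POLR2J3 ENSG00000285437.2 (0.029), and with upper-quartile factors INTS11 (0.0063), MED17 (0.011). They were, with RLE factors MED17 (0.00053), with protein-coding genes alone MED17 (0.0023), by DESeq2 MED17 (0.00060), by limma-voom POLR2J3 ENSG00000285437.2 (0.017). With 1 library left out, the ranges were INTS10 -0.0044 to 0.14, INTS11 -0.032 to 0.021, INTS12 -0.089 to 0.18, INTS3 -0.093 to 0.11, INTS4 -0.045 to 0.087, MED10 -0.091 to 0.0042, MED17 -0.026 to 0.022, MED22 -0.020 to 0.095, MED27 -0.061 to 0.096, MED29 -0.077 to 0.034, MED31 -0.043 to 0.16, POLR2B -0.067 to 0.0052, POLR2J3 ENSG00000168255.20 -0.33 to 0.20, POLR2J3 ENSG00000285437.2 -0.30 to 0.34. Of the other results on members not past the test, 507 stayed and 23 passed it under an alternative.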
